A study of Mus musculus with 2 samples.

Results

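Border-associated macrophages are the macrophages that live at the edges of the brain, in the meninges, around vessels and in the choroid plexus. The genes followed here mark them, namely Lyve1, Mrc1, Cd163, Pf4, Lyz2, F13a1, Ms4a7, Stab1 and Cbr2. These 9 genes were taken as a named list and found by gene symbol among the 43346 annotated genes of each table, and all 9 had a row. The tables come from total RNA sequencing of the midbrain of 2 mouse embryos at 14.5 days of development, 1 library per embryo, with RNA longer than 200 nt and an input of 10 ng. Both embryos were of the B6NCrl strain, and the labels name no treatment and no altered allele. They are biological replicates 1 and 2 of 1 group, called embryo 1 and embryo 2 here, so values were compared between the embryos and no group was tested against another.

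The labels describe each library as the midbrain of a single pup, collected on different days, yet give the sex as pooled and the same donor identifier to both. Xist, which is expressed from the inactive X chromosome, had 3 counts in embryo 1 and 20808 in embryo 2. The Y-linked Eif2s3y had 1901 and 0 counts. Embryo, sex and day of collection therefore cannot be told apart in any difference given here. The labelled tissue was checked with regional genes chosen for that purpose. En1, a midbrain and isthmus gene, stood at 13.5 and 14.3 TPM in embryos 1 and 2, a level scaled to transcript length and to the total of the library, and Otx2, a forebrain and midbrain gene, at 99.9 and 76.3. The hindbrain and spinal cord gene Hoxb4 had 0 counts in both. The gene tables held 31687050 counts in embryo 1 and 29182388 in embryo 2.

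Border-associated macrophages and microglia both arise early in development, largely from yolk sac progenitors, and both need the receptor Csf1r. Microglia settle inside the brain tissue, while the border-associated cells stay outside it and take up material with scavenger and lectin receptors. Lyve1 binds hyaluronan, Mrc1 (CD206) binds mannose-bearing glycoproteins, Cd163 takes up haemoglobin bound to haptoglobin, and Stab1 (stabilin-1) clears modified proteins and other ligands. Pf4 is a chemokine, Lyz2 is the lysozyme of myeloid cells, F13a1 is the A subunit of coagulation factor XIII, Ms4a7 is a membrane protein with several membrane-spanning segments, and Cbr2 is a carbonyl reductase. Several of these genes are also known from other cells: Lyve1 from lymphatic vessels, Stab1 from sinusoidal vessels, Pf4 and F13a1 from megakaryocytes and platelets, and Lyz2 from monocytes and neutrophils. Markers of those cells are given beside each gene.

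The promoters of Mrc1, Pf4 and F13a1, the members with counts in both embryos that stood farthest apart between them, and that of Stab1, for its pair of different matches, are shown first. The RefSeq promoter table (build GRCm38.p6) held 10 promoters for 8 of the 9 members, Lyve1 being the member without an entry. Letters that 3 families of myeloid factors are known to bind were searched on both strands in the 250 bases before each start, namely GAGGAA for PU.1 and other ETS factors, TGCTGA for MAF factors, and TTGCNNAA for C/EBP factors. A minus-strand match of GAGGAA reads TTCCTC in the printed stretch. Capitals mark the matches, sequences run 5′ to 3′ on the strand of the gene, and each printed stretch stops where an annotated transcript begins. The stretches are chr2:14229164-14229391 on the plus strand for Mrc1, chr5:90772185-90772434 on the plus strand for Pf4, chr13:37050245-37050494 and chr13:37049289-37049463 on the minus strand for the upstream and downstream starts of F13a1, and chr14:31168642-31168891 on the minus strand for Stab1.
Mrc1: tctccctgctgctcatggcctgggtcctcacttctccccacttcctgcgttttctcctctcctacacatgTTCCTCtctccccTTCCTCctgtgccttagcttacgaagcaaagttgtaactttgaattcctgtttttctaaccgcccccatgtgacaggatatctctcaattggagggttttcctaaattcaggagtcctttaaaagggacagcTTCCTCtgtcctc
Pf4: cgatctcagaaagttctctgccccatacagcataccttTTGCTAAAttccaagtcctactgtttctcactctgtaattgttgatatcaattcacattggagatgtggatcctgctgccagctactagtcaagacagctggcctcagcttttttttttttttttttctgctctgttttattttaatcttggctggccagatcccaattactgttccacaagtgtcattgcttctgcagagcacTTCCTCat
F13a1 upstream start: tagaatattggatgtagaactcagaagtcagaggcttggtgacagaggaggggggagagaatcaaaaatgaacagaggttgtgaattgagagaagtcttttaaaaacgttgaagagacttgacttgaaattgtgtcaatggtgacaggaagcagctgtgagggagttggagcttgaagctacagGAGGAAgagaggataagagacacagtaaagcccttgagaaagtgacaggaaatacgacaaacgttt
F13a1 downstream start: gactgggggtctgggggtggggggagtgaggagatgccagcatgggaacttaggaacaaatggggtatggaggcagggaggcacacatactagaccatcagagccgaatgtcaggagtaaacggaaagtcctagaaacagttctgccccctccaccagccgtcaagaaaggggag
Stab1: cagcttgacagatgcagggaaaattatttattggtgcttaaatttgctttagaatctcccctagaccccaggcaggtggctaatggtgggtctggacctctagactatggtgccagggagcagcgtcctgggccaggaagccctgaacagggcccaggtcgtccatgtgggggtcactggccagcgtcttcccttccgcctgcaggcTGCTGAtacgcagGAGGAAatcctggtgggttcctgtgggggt

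Mrc1 held GAGGAA on the minus strand 3 times, at bases 180 to 175, 167 to 162 and 35 to 30 before its start. Pf4 held GAGGAA on the minus strand 8 to 3 bases before its start, and TTGCNNAA on the plus strand at bases 212 to 205. Stab1 held TGCTGA at bases 43 to 38 and GAGGAA at bases 30 to 25, both on the plus strand. The upstream start of F13a1 had GAGGAA at bases 66 to 61, and the downstream start had no match. Over the whole table, GAGGAA lay in 23.3% of 32851 promoters and in 5 of the 10 promoters of the members, those of Cbr2, Mrc1, Pf4 and Stab1 and the upstream one of F13a1. The match of Cbr2, at bases 79 to 74 before its start, lies within the 93 bases of its window that an annotated transcript covers. TGCTGA lay in 16.1% of promoters and in 2 of the 10, those of Lyz2 and Stab1, while TTGCNNAA lay in 9.56% and in 1 of the 10, that of Pf4. None of these matches overlapped another. The promoters of Cd163 and Ms4a7 held no match, which says only that these letters are not in the windows searched.

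Levels are TPM, which allow for transcript length, and counts are the estimated reads per gene. In embryo 1 the members fell into 3 steps of level. Pf4, Lyz2 and Stab1 stood between 22.7 and 32.5 TPM, above 71.2% to 77.4% of protein-coding genes. F13a1, Mrc1, Lyve1 and Ms4a7 stood between 2.08 and 8.11 TPM, and Cbr2 and Cd163 at 0.41 and 0.17. In embryo 2, Stab1, Lyz2 and Pf4 stood at 5.60, 4.03 and 2.26 TPM, Cd163, Mrc1 and F13a1 lay between 0.04 and 0.17, and Lyve1, Ms4a7 and Cbr2 had 0 counts. The estimate of each of the 9 members was lower in embryo 2 than in embryo 1. The deposited tables give an interval for each TPM, with no level stated in the deposited records. In embryo 2 the intervals of Cbr2 (0.0616 to 0.825) and Cd163 (0.0143 to 0.110) overlapped their own intervals in embryo 1, so these differences are not resolved in TPM. In embryo 1 the interval of Stab1 (18.6 to 28.4) overlapped those of Pf4 (28.2 to 35.3) and Lyz2 (23.7 to 27.8). The intervals of Lyve1 (2.34 to 3.28) and Ms4a7 (1.53 to 3.10) overlapped as well, as did those of Cbr2 (0.203 to 1.31) and Cd163 (0.0983 to 0.278), so the order within these pairs is not resolved. Only Pf4, Lyz2 and Stab1 reached 1 TPM in both embryos, which is 3 of 9 members against 59.5% of 21474 protein-coding genes, and 7 members reached it in embryo 1.

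**Figure D1:**
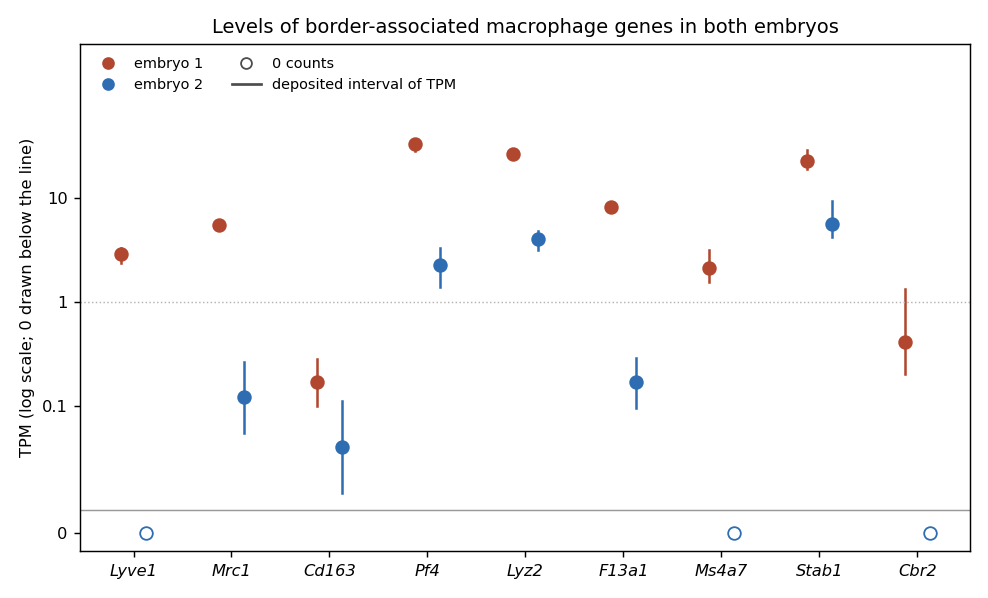
Level of each member in embryo 1 (red) and embryo 2 (blue), in TPM on a log scale, with 0 drawn below the line as an open circle and vertical lines for the deposited interval of the estimate. The red point lies above the blue one for all 9 genes, though the deposited intervals of Cd163 and Cbr2 overlap between the embryos. Lyve1, Ms4a7 and Cbr2 had 0 counts in embryo 2, and no interval is drawn for them there.

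Ratios between the embryos were taken from counts scaled for library depth and composition, as embryo 1 over embryo 2. Their 95% intervals are exact binomial intervals that take each read as independent, and they cover counting error only. The reads carry no molecular identifiers and several can stem from 1 molecule, so the intervals can be too narrow even for that error. They take no account of variation between animals. Where embryo 2 had 0 counts, the ratio was computed as if that library had held 3 counts, here called the floor. It is called a lower bound against the floor, and the lower limit of its interval lies below it. With 1 library on each side there is no test, and a fixed 2-fold was used to describe size, applied to ratios with a prior count of 0.5 added to both libraries. All 8 members with at least 10 summed counts were at least 2-fold higher in embryo 1, against 6.79% of the 18874 genes with that many counts. Low counts scatter more, so the share was also taken over the 8596 genes whose summed counts lay between those of Cd163 and Stab1, 17 to 994, and it was 10.9% there. By any amount, 49.5% of the 18874 genes were higher in embryo 1. The members were chosen with earlier results of these data known, so these shares serve as description and are no test of the list. The median log2 ratio of the 8 members was 4.54, which is 23.3-fold, and it was 11.6-fold when Lyve1 and Ms4a7 were set at their lower bounds. The median of all genes was -0.01. In tissue RNA, fewer cells of a type and less RNA per cell cannot be told apart.

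**Figure D2:**
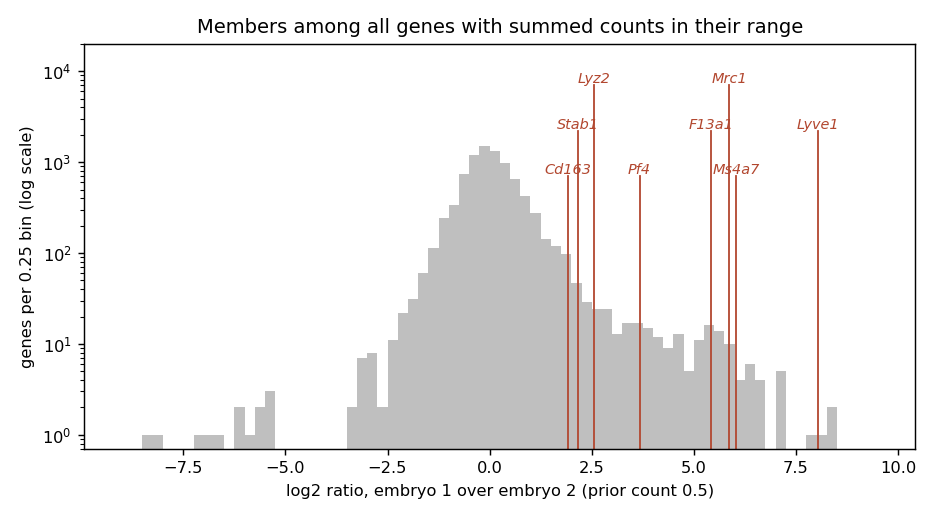
Number of genes (log scale) by log2 ratio of embryo 1 over embryo 2 in bins of 0.25, for the 8596 genes with summed counts in the range of the members, with red lines at the 8 members. The histogram peaks near 0, and the members lie between 1.92 (Cd163) and 8.04 (Lyve1), with a prior count of 0.5, which sets the places of Lyve1 and Ms4a7 since both had 0 counts in embryo 2.

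Among the receptors, Lyve1 (ENSMUSG00000030787.3, chr7:110850607-110863239, minus strand) had 138 counts in embryo 1 and 0 in embryo 2, or 2.87 and 0 TPM, with a mean of 1.44 ± 2.03 (SD, n = 2; the same holds for each later level with an SD). The SD exceeds the mean because the whole signal lay in embryo 1. Its ratio against the floor was 41.5-fold, and the lower limit of its interval was 33.3-fold. A count of 3 in embryo 2, the floor used for the ratio, would have been 0.0626 TPM. All reads of Lyve1 were assigned to 1 coding transcript.

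Lyve1 is also a gene of lymphatic vessels, and Prox1, the transcription factor that sets lymphatic identity, had 1138 and 862 counts, a ratio of 1.19 (1.09 to 1.30). All 4 lymphatic genes measured were higher in embryo 1, and 1 of them, Ccl21a, was at least 2-fold higher, with 10 and 0 counts. Ccl21a, a chemokine of lymphatic vessels, was chosen for mention after its values were seen. Pdpn stood at 49.3 and 32.4 TPM and Flt4, a receptor for lymphatic growth factors, at 1.65 and 0.89. The summed level of the 4 genes was 60.02 and 39.31 TPM. Prox1 and Pdpn are known from neural progenitors and other brain cells too. The part of lymphatic vessels in the Lyve1 difference was not tested.

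Mrc1 (ENSMUSG00000026712.3, chr2:14229392-14332057, plus strand) had 546 counts in embryo 1 and 8 in embryo 2. Its level was 5.47 and 0.12 TPM (2.80 ± 3.78). The ratio of counts was 61.6 (31.0 to 143), the largest of the members with counts in both embryos. In TPM the ratio was 45.6, since the estimated mix of transcripts differed. In embryo 1 the coding transcript Mrc1-201 took 542 of the counts, while in embryo 2 it took 5.68 and the retained-intron transcript Mrc1-202 took 2.32. With the coding transcript alone the TPM values were 5.37 and 0.06. The microRNA gene Mir511 lies in an intron of Mrc1 on the same strand and had 0 counts in both.

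Cd163 (ENSMUSG00000008845.5, chr6:124304656-124330527, plus strand) had 14 and 3 counts and 0.17 and 0.04 TPM (0.105 ± 0.0919), the lowest mean TPM of the members. Its ratio was 4.21, with an interval of 1.18 to 22.9, the widest of the members on a log scale among those with counts in both embryos. That interval overlaps those of all the other members except Mrc1, F13a1 and Lyve1. All counts went to the transcript Cd163-201.

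Stab1 (ENSMUSG00000042286.9, chr14:31139013-31168641, minus strand) had 827 counts in embryo 1 and 167 in embryo 2, the highest count of the members in each. Its level was 22.7 and 5.60 TPM (14.2 ± 12.1), and its ratio was 4.48 (3.78 to 5.31). It was the only member whose counts were not whole numbers within 0.005, so some of its reads were divided among places. The level of Stab1 rests largely on 1 short transcript. Stab1-202, a non-coding model of 242 bases in 3 exons, received 28.7 and 8 counts but 10.5 and 2.93 TPM, which is 46.1% and 52.3% of the TPM of the gene. Of its bases, 108 lie in exons of Nt5dc2, a gene on the opposite strand with 5612 and 4335 counts, and whether counting used strand is not stated in those records. The full-length coding transcript Stab1-201, of 7999 bases in 69 exons, received 527 and 97.8 counts, or 3.48 and 0.65 TPM. With coding transcripts alone Stab1 stood at 4.40 and 1.29 TPM, below Pf4 and Lyz2 and, in embryo 1, below F13a1 and Mrc1 too. That coding level includes Stab1-207, a short model of 413 bases with 0.92 and 0.64 TPM, of which 112 bases also lie in exons of Nt5dc2. The embryos differed in the same direction on either basis, by 3.41-fold in coding TPM and 4.73-fold in scaled coding counts.

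**Figure D3:**
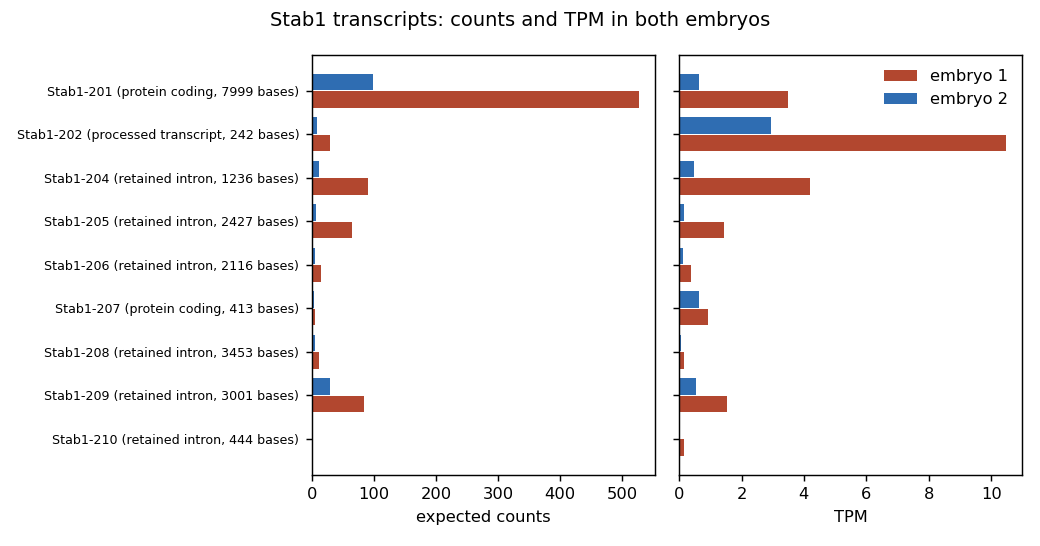
Estimated counts (left) and TPM (right) of the Stab1 transcripts with reads, in embryo 1 (red) and embryo 2 (blue). The longest coding transcript, Stab1-201, has the most counts (527 and 97.8), whereas the 242-base Stab1-202 has the highest TPM (10.5 and 2.93).

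Vessel genes moved with Stab1 to a smaller extent. All 12 endothelial genes were higher in embryo 1, 4 of them by at least 2-fold, with a median of 1.47-fold and a summed level of 292 and 188 TPM. Cldn5, a tight junction gene of brain vessels, had 1784 and 1430 counts, a ratio of 1.13 (1.05 to 1.21). Kdr, the main receptor for the vessel growth factor VEGF-A, had 2403 and 797 counts, a ratio of 2.72 (2.51 to 2.95), and Emcn, an endothelial sialomucin, 2.58 (1.97 to 3.42). Stab2, the close relative of Stab1 in sinusoidal vessels, had 9 and 8 counts and is named after its values were seen. The interval of Stab1 lies above that of Kdr, the endothelial gene with the largest ratio. The part of vessels in the Stab1 difference was not tested.

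Among the secreted proteins and enzymes, Pf4 (ENSMUSG00000029373.6, chr5:90772435-90773383, plus strand) had 303 and 21 counts. Its level was 32.5 TPM in embryo 1, the highest estimate of the members though its interval overlapped that of Stab1, and 2.26 in embryo 2 (17.4 ± 21.4). The ratio was 13.02 (8.37 to 21.3). All counts went to 1 transcript.

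F13a1 (ENSMUSG00000039109.11, chr13:36867178-37050244, minus strand) had 587 counts in embryo 1 and 12 in embryo 2, or 8.11 and 0.17 TPM (4.14 ± 5.61), a ratio of 44.1 (25.1 to 85.9). Its interval overlaps that of Mrc1 and lies above that of Pf4. All 587 counts of embryo 1 were assigned to the transcript F13a1-201, which begins at 37049288, and all 12 of embryo 2 to F13a1-202, which begins at 37050244. The transcripts differ in few places. Only 3.82% of the 100-base windows of F13a1-201 are absent from F13a1-202, and only 1.30% of those of F13a1-202 are absent from F13a1-201. With 12 counts in embryo 2, the files do not show which start was used there.

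Pf4 and F13a1 are also genes of platelets and their precursors, and the platelet genes did not move with them as a list. Of 8 platelet genes with at least 10 summed counts, 4 were higher in embryo 1, 1 by at least 2-fold, and their median ratio was 0.981. Itga2b, the integrin subunit that defines megakaryocytes and platelets, had 86 and 83 counts, a ratio of 0.935 (0.684 to 1.28). Gp1bb, a subunit of the receptor for von Willebrand factor, had a ratio of 0.822 (0.715 to 0.946). The exception was Ppbp, a platelet chemokine gene close to Pf4 on chromosome 5, with 15 and 4 counts and a ratio of 3.38 (1.08 to 14.0). The summed level of the 10 platelet genes was 21.03 and 21.26 TPM, and Gp1bb made up most of it, at 13.9 and 13.4 TPM. The counts of Gp1bb, 390.8 and 429.29, were not whole, so some of its reads were divided among places. Its ratio and the summed level rest in part on those reads. The part of platelets in the Pf4 and F13a1 differences was not tested.

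Lyz2 (ENSMUSG00000069516.7, chr10:117277331-117282321, minus strand) had 592 and 90 counts, or 26.5 and 4.03 TPM (15.3 ± 15.9), and a ratio of 5.94 (4.75 to 7.50). This interval overlaps that of Stab1 and lies below that of Pf4. Lyz2 has a near-identical neighbour, Lyz1, whose coding sequence matches it at 425 of 447 aligned bases (95.1%). Of the 100-base windows of the Lyz2 transcript, 24 of 1217 occur in Lyz1 as well. Lyz1, the lysozyme of Paneth cells, had 0 counts in both embryos, and the counts of Lyz2 were whole.

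Genes of monocytes and neutrophils were few and low. Only 6 of 13 had at least 10 summed counts, 5 of these were at least 2-fold higher in embryo 1, and 8 of the 13 had 0 counts in embryo 2. S100a8, which is abundant in neutrophils, had 13 and 1 counts, a ratio of 11.7 (1.76 to 499). Plac8, a gene of monocytes and granulocytes, had 32 and 0 counts, a ratio of 9.63-fold against the floor (lower limit 7.39). Prtn3, a granule protease gene, was the exception at 170 and 173 counts, a ratio of 0.888 (0.713 to 1.10), and it made up most of the summed level of 20.6 and 13.8 TPM. Its counts, 170.12 and 172.85 before rounding, were not whole, so some of its reads were divided among places. The granule protease gene Elane, named after its values were seen, had 0 counts in both. The part of these cells in the Lyz2 difference was not tested.

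Cbr2 (ENSMUSG00000025150.6, chr11:120729489-120732114, minus strand) had 3 counts in embryo 1 and 0 in embryo 2, which is at or under the floor in both, so no ratio is given. Its level was 0.41 and 0 TPM (0.205 ± 0.290), and 3 counts in embryo 2 would have been 0.270 TPM. The full-length coding transcript had 0 counts in both, and the 3 counts went to 2 shorter models. Of the 100-base windows of these models, 19.6% for the one with 2 counts and 8.45% for the one with 1 also occur in the gene Gm11771. Cbr2 was therefore close to the limit of detection in embryo 1 and not detected in embryo 2.

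Ms4a7 (ENSMUSG00000024672.7, chr19:11321039-11336146, minus strand), the remaining membrane protein, had 34 and 0 counts. Its level was 2.08 and 0 TPM (1.04 ± 1.47), its ratio against the floor was 10.2-fold, and the lower limit of its interval was 7.88-fold. Most of its counts in embryo 1, 27.8, were assigned to the coding transcript Ms4a7-202 and 4.94 to another coding transcript. A count of 3 in embryo 2 would have been 0.106 TPM at the effective length deposited for that library, 1481 bases. The deposited length in embryo 1 was 854 bases, so this value depends on the transcripts assumed. Its family member Ms4a6b, from a list of other genes often reported in these cells, had 101 and 3 counts, a ratio of 30.4 (10.1 to 150).

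Set side by side, the counting intervals separate most members into groups of ratio. Cd163 is not placed, since its interval (1.18 to 22.9) spans those of Pf4, Stab1 and Lyz2. Mrc1, F13a1 and Lyve1 had lower limits of 31.0, 25.1 and 33.3. Pf4 lay between 8.37 and 21.3, and Stab1 and Lyz2 between 3.78 and 7.50. The lower limit of Ms4a7, 7.88, lay above the upper limits of Stab1 and Lyz2. Ms4a7 has no upper limit, so its place against Pf4, Mrc1, F13a1 and Lyve1 is not resolved. Summed over the 9 members, there were 3044 counts in embryo 1 and 301 in embryo 2, a ratio of 9.14 (8.11 to 10.3), and 101 and 12.2 TPM. The counting intervals of the members thus do not all overlap. They leave out variation between animals and reads that share a molecule, so whether 1 common factor applies was not tested.

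**Figure D4:**
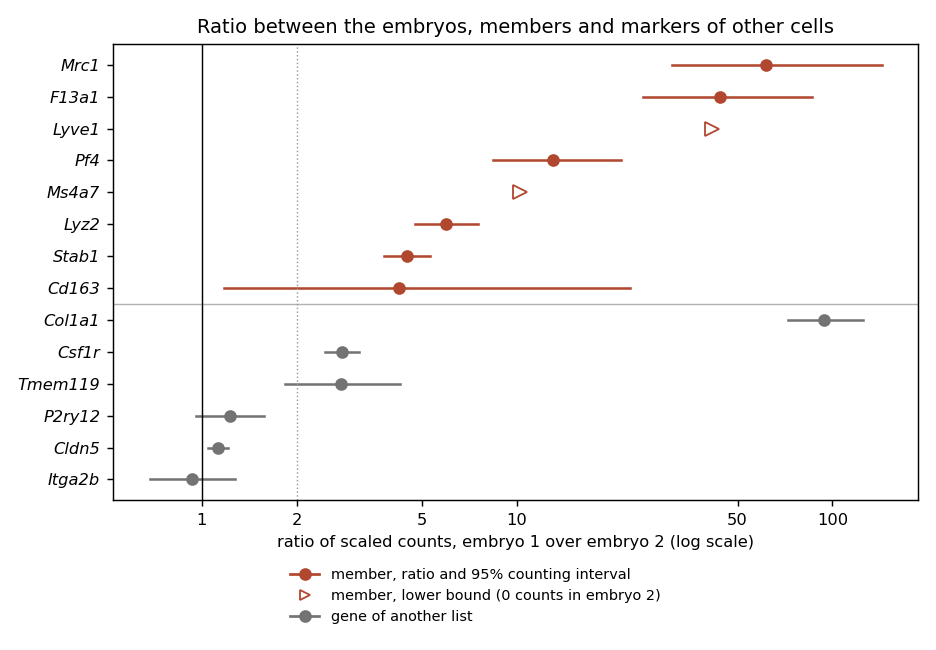
Ratio of scaled counts, embryo 1 over embryo 2, on a log scale, with 95% counting intervals for 8 members (red) and 6 markers of other cells (grey); open triangles are lower bounds and the dotted line marks 2-fold. Mrc1 (61.6) and F13a1 (44.1) lie to the right of Stab1 (4.48) and Lyz2 (5.94), while Itga2b (0.935) lies near 1, and the interval of Col1a1 (72.4 to 125) overlaps that of Mrc1 (31.0 to 143).

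Other genes reported in border-associated or resident scavenging macrophages were described in the same way. Of 15 with at least 10 summed counts, 14 were higher in embryo 1 and 11 by at least 2-fold, with a median of 10.5-fold, or 6.90-fold with genes absent from embryo 2 at their bounds. Colec12, a scavenger receptor with a collagen-like stalk, had 1880 and 77 counts, a ratio of 22.0 (17.5 to 28.0). Apoe, a lipid carrier that astrocytes and progenitors make as well, was the most abundant gene of the list at 212 and 126 TPM, with a ratio of 1.46 (1.39 to 1.53). A few more genes are named after their values were seen. Folr2, a folate receptor of resident macrophages, had 40 and 3 counts (12.0, interval 3.83 to 60.8), and Dab2, an endocytic adaptor, 1178 and 154 (6.90, interval 5.83 to 8.22). Maf, a transcription factor of macrophages that other midbrain cells may share, had a ratio of 0.933 (0.839 to 1.04).

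The macrophage genes that microglia share differed less between the embryos than most members. Of 18 such genes 17 were higher in embryo 1, 10 by at least 2-fold, with a median of 2.26-fold and a summed level of 290 and 157 TPM. Csf1r had 1036 and 336 counts, a ratio of 2.79 (2.46 to 3.16). C1qb, a complement subunit, had a ratio of 1.95 (1.69 to 2.26), and Lgmn, a lysosomal protease of many cells, 0.983 (0.926 to 1.04). The largest ratios of the list were those of Adgre1 (F4/80), with 228 and 51 counts and 4.03 (2.97 to 5.58), and Fcer1g, a signalling subunit of Fc receptors, with 252 and 57 counts and 3.99 (2.98 to 5.42). Of the 8 members, 7 had a log2 ratio of counts above all 18 of these genes, and Cd163 had 2 of the 18 at or above it. For Stab1 the place is not resolved, since its interval (3.78 to 5.31) overlaps that of Adgre1, and its ratio of deposited TPM was 4.06 against 4.41 for Adgre1.

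Microglia-enriched genes differed least among the macrophage lists. Of 13 genes 11 were higher in embryo 1 and 2 by at least 2-fold, with a median of 1.38-fold and a summed level of 72.4 and 50.7 TPM. Selplg, named for lying at that threshold, had 58 and 26 counts, a ratio of 2.01 that fell below 2-fold once the prior count was added. P2ry12, a purine receptor of microglia, had 155 and 114 counts, a ratio of 1.23 (0.957 to 1.58). Tmem119 had 98 and 32 counts, a ratio of 2.76 (1.84 to 4.26), which was the largest of the list. For every 100 counts of the microglia list, the members had 91.6 counts (87.2 to 96.3) in embryo 1 and 13.1 (11.6 to 14.8) in embryo 2. For every 100 counts of the shared macrophage list, they had 41.0 (39.3 to 42.7) and 7.18 (6.38 to 8.08). These intervals do not overlap between the embryos, and they cover counting error only.

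**Figure D5:**
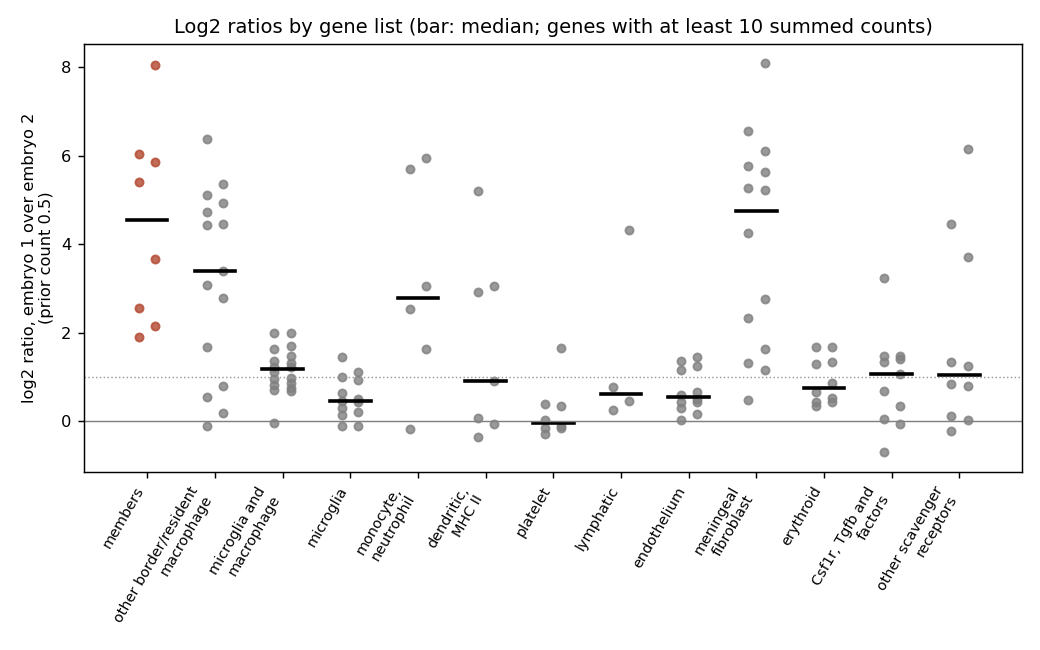
Log2 ratio of embryo 1 over embryo 2 for each gene with at least 10 summed counts, by gene list, with a bar at the median of each list and the dotted line at 2-fold. The medians of the members (4.54) and of the meningeal fibroblast list (4.74) are the highest, and that of the platelet list (-0.03) is the lowest.

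Genes of meningeal fibroblasts, the cells among which border-associated macrophages lie, moved with the members. All 14 such genes were higher in embryo 1, 13 by at least 2-fold, with a median of 26.8-fold and a summed level of 617 and 50.9 TPM. Col1a1, a chain of type I collagen, had 5749 and 55 counts, a ratio of 94.3 (72.4 to 125). Lum, a proteoglycan of connective tissue, had 1044 and 3 counts, a ratio of 314 (107 to 1526), and Col3a1 69.6 (60.1 to 81.0). The members made up 8.51 counts (8.20 to 8.83) per 100 counts of that list in embryo 1 and 18.4 (16.2 to 20.8) in embryo 2, so the summed fibroblast genes differed more than the members. None of the 14 was at 0 in either embryo. How much meninges each dissected midbrain carried was not tested.

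Red blood cell genes were also higher in embryo 1, all 10 of them, with a median of 1.70-fold and summed levels of 9955 and 6475 TPM. Hba-a2, an alpha-globin gene whose reads can be split with its near copy Hba-a1, had a ratio of 1.35 (1.33 to 1.37) and Hbb-y, an embryonic globin gene, 3.21 (3.02 to 3.41). Of 7 dendritic cell and MHC class II genes with at least 10 summed counts, 5 were higher in embryo 1 and 3 by at least 2-fold, with summed levels of 8.24 and 3.21 TPM. Cd74, the invariant chain of MHC class II, had 88 and 10 counts, a ratio of 7.94 (4.12 to 17.1). H2-Eb1, a beta chain of MHC class II, had 27 and 31 counts, a ratio of 0.786 (0.451 to 1.36). The parts of blood and of dendritic cells in the members' differences were not tested.

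Genes of macrophage survival and identity were mixed. Of 11 ligands, receptors and factors, 9 were higher in embryo 1 and 6 by at least 2-fold, with a median of 2.11-fold. Csf1, a ligand of Csf1r, had 361 and 117 counts, a ratio of 2.78 (2.25 to 3.46). Il34, the other ligand of Csf1r, is named after its values were seen and had 88 and 8 counts, a ratio of 9.93 (4.82 to 23.7). Tgfbr1, a receptor of the TGF-beta signal that microglia need, had a ratio of 1.62 (1.54 to 1.70), and Cx3cl1, a chemokine of neurons, 1.04 (0.951 to 1.14).

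Scavenger and lectin receptors that are not members were divided as well. Of 10 with at least 10 summed counts, 9 were higher in embryo 1 and 5 by at least 2-fold, with a median of 2.07-fold. Besides Colec12, which is counted under both lists, Mertk, a receptor for the uptake of dying cells, had 88 and 31 counts and a ratio of 2.56 (1.68 to 3.99). Scarb1, a receptor for high-density lipoprotein, had a ratio of 1.08 (0.978 to 1.19). Msr1, a macrophage scavenger receptor named after its values were seen, had 37 and 0 counts, 11.1-fold against the floor (lower limit 8.61). Marco, Cd209b and Cd5l, also named after their values were seen, had 0 counts in both. None of the 12 lists compared with the members had a gene at least 2-fold higher in embryo 2 among those with at least 10 summed counts. The share of all genes at least 2-fold higher in embryo 2 was not taken, so how unusual this is was not tested.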

How the data were processed

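Gene and transcript tables were deposited by the authors for 2 libraries, made from alignments to mm10 with the GENCODE M4 annotation per the deposited text records. The quantifier, the level of its TPM intervals and the strand setting are not given in the sources read here. The deposited expected counts are estimates of reads per row by the authors and can be fractions. TPM, its posterior mean and its interval bounds are the authors' values, per the file headers, scaled over all rows with spike-ins included. A gene's TPM depends on which transcripts were estimated to be present, so TPM and count ratios can differ.

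Symbols and coordinates came from GENCODE M21 (GRCm38, which is mm10) and matched 42462 of 43346 Ensembl rows (98.0%). Spike-ins (3.15% and 3.32% of assigned counts) and 26248 rows with only a numeric identifier (6 and 14 counts) stayed out of library sizes. Unrounded expected counts were scaled with edgeR 4.0.16 TMM factors (1.01 and 0.990, R 4.3.3). Ratios carry 95% exact conditional binomial intervals, log2 values a prior count of 0.5, and a count of 0 a floor of 3 counts per library. Genes with at least 10 summed counts entered the 2-fold rule. The ratio script was tested on simulated data. Coding identity was aligned with Biopython 1.88 over the longest open reading frames.

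The members and the 12 other gene lists were chosen with earlier results of these data known. Named genes are all members, the 2 genes of each other list with the highest mean TPM, the 2 with ratios farthest from 1 among those with at least 100 summed counts, and the defining markers Csf1r, P2ry12, Tmem119, Itga2b, Ppbp, Prox1, Cldn5, S100a8, Lyz1 and Col1a1. Not every gene that this rule would name is reported here. Any further gene is said to be named after its values were seen. With 1 group of 2 libraries no test was made. Other scalings (DESeq2 1.42.0 size factors, total counts, spike-ins), minimums, thresholds, prior counts and TPM estimates were tried as alternatives.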

Additional observations from a re-analysis of the deposited data

How the results depend on the processing

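All 8 members with at least 10 summed counts stayed at least 2-fold higher in embryo 1 with DESeq2 size factors, total counts or spike-in counts, and at 1.5-fold or 3-fold. The count was 7, without Cd163, with ratios of deposited TPM (pseudocount 0.1), 6 with a minimum of 100 summed counts and 9 with none. The median log2 ratio of 4.54 became 3.41 with posterior mean TPM, 3.67 with no minimum, 3.84 with a prior count of 2, and 3.67 over single-transcript members, an alternative chosen after seeing the data. Under the other settings tried it lay between 4.12 and 5.41. Leaving out 1 library at a time, the members at 1 TPM or more numbered 3 to 7, with 7 when embryo 2 was left out. With posterior mean TPM the Stab1 ratio was 3.59 and the mean level of Cbr2 was 0.565 TPM. Depth limits Cd163, Cbr2 and Ms4a7 most, since each had fewer than 50 summed counts. No paired analysis was possible because the libraries form 1 group.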
